A study of Mus musculus with 3 samples.

Results

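Insulin-like growth factors (IGFs) act on muscle precursor cells through a small set of genes, and 9 of them are described here in the mouse myoblast line C2C12: the ligands Igf1 and Igf2, the receptors Igf1r and Igf2r, the binding proteins Igfbp2, Igfbp4 and Igfbp5, and the receptor substrates Irs1 and Irs2. They were chosen by symbol, as every probe set that the platform annotation gives to 1 of these 9 symbols and no other, out of 12393 named genes. The 9 genes have 20 probe sets among 20380 named ones. The series compared 3 groups of C2C12 cells with 1 array each: untreated cells, cells given EGFP (enhanced green fluorescent protein) by transfection, and cells transfected with DGKzeta, the zeta isoform of diacylglycerol kinase, which turns diacylglycerol into phosphatidic acid. All 3 samples are labelled 12 h and came from cells grown with fetal calf serum, plated 18 h before transfection with the FuGene reagent. How many of the cells took up a construct was not stated in the labels, and the untreated cells do not carry the transfection itself.

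IGF1 and IGF2 are secreted ligands that bind the receptor tyrosine kinase encoded by Igf1r. The active receptor phosphorylates the docking proteins IRS1 and IRS2, which recruit phosphatidylinositol 3-kinase and so activate AKT and mTOR, while a second branch runs through GRB2, SOS and RAS to the MAP kinases. In myoblasts the pathway is known to promote both proliferation and differentiation, and both Igf2 and Igfbp5 are known to increase when C2C12 cells differentiate. Igf2r encodes the cation-independent mannose 6-phosphate receptor, which clears IGF2, and IGF-binding proteins hold the ligands outside the cell.

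Values are MAS5 signals on a linear scale, and a probe set counts as measured where its signal reached 107, the median of all values pooled (the floor). With 1 array per group there are no replicates, so no difference has a replicate check and sizes are given without p-values. Dgkz, the transfected gene, had signals of 1500.1, 1053 and 13466 in untreated, EGFP and DGKzeta cells. Of 6 myoblast marker genes 5 were measured on every array, and Myod1, a defining myoblast factor, was under the floor on all of them (35.1, 26.5 and 23.7). Of 9 markers of differentiating muscle, 1 was measured in each control and 0 in DGKzeta cells, and their summed signal was 265, 254 and 191. The defining endothelial markers were under the floor on all 3 arrays. Of the other lists at most 1 marker was measured on any array, with summed signals of 344 to 496 for 5 fibroblast genes, 278 to 431 for 3 adipocyte genes and 144 to 197 for 4 macrophage genes. The ratio of the 3' to the 5' control probe set of Actb, a sign of RNA or labelled product length, was 1.27 in untreated, 1.43 in EGFP and 2.55 in DGKzeta cells, and that of Gapdh 0.841, 0.902 and 0.931. The part of these differences in the values below was not tested.

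Of the 20 probe sets 5 reached the floor on at least 1 array, and these belong to 4 of the 9 genes: Igf1r, Igf2r with both of its probe sets, Igfbp2 and Irs1. That is 25% of the members' probe sets, against 54.3% of all named ones. By gene it is 4 of 9, against 56.4% of 12393 named genes with any measured probe set. The other 15 probe sets, which include every probe set of Igf1, Igf2, Igfbp4, Igfbp5 and Irs2, had signals between 1.55 and 77.5. In these myoblast cultures the receptors, 1 binding protein and 1 receptor substrate thus gave measured signals, and neither ligand did. A signal under the floor does not show that an RNA was absent.

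**Figure D1:**
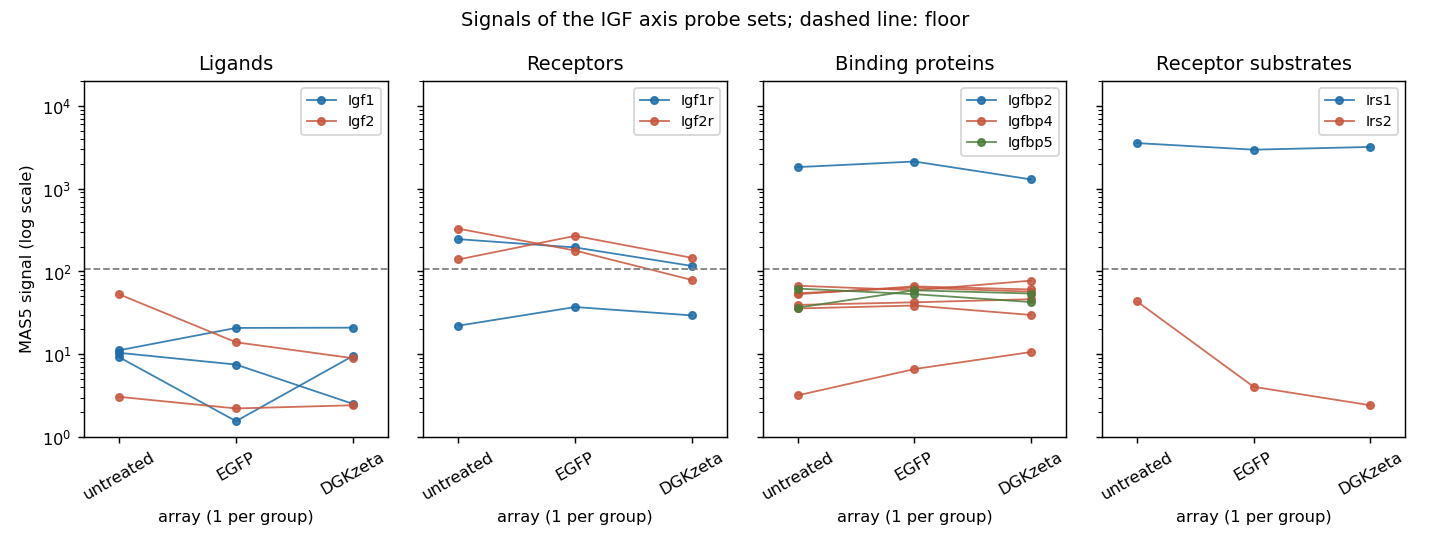
MAS5 signal (log axis) of each of the 20 probe sets on the untreated, EGFP and DGKzeta arrays, 1 line per probe set, coloured by gene, with the floor of 107 dashed. Every line of Igf1, Igf2, Igfbp4, Igfbp5 and Irs2 lies under the floor, while Igfbp2 and Irs1 stay above it on all 3 arrays.

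The receptors carried the widest differences between arrays. RefSeq promoter windows (assembly GRCm38.p6) are shown for Igf1r and Igf2r, each more than 2-fold lower in DGKzeta than in untreated cells by 1 of its 2 probe sets, and for Irs1, whose signals lay closest together of the measured members. Each is the stretch of 250 bases before the transcription start, at chr7:67952007-67952256 on the plus strand for Igf1r, chr17:12769707-12769956 on the minus strand for Igf2r and chr1:82291440-82291689 on the minus strand for Irs1. Capitals mark the letters GGGCGG (the GC box, searched on both strands, where it reads CCGCCC).
Igf1r: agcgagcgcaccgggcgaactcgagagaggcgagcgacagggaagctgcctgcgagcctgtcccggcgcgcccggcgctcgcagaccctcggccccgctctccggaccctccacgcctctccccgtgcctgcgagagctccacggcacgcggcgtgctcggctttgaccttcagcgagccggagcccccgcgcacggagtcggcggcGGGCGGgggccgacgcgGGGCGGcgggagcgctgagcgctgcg
Igf2r: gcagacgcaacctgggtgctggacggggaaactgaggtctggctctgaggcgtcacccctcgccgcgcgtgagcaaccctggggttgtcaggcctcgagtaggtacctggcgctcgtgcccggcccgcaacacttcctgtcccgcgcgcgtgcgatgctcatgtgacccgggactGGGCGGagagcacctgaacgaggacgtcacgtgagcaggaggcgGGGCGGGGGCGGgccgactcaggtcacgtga
Irs1: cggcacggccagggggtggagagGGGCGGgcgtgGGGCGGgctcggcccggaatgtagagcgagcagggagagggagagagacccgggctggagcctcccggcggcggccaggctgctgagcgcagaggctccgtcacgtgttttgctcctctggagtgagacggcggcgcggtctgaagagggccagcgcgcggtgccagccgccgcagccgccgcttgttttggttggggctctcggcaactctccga
The window of Igf1r holds 2 GC boxes, that of Igf2r 3 and that of Irs1 2 of them. Of the 13 promoter windows of the 9 members 7 hold the motif. Of all 32851 promoter windows of this length 32.7% hold the motif at least once. G and C make up 77.6% of the bases before Igf1r, 69.2% before Igf2r and 72.4% before Irs1, with 42, 27 and 28 CpG dinucleotides, where the median window has 52.4% and 6. A match describes letters in a window and says nothing of binding in these cells.

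Igf1r, which encodes the tyrosine kinase receptor for both ligands, had signals of 246 in the untreated, 195 in the EGFP and 117 in the DGKzeta culture by its brighter probe set (1426565_at). The signal was highest in untreated and lowest in DGKzeta cells, where it stood just above the floor. This is a log2 ratio of -1.07 for DGKzeta over untreated, or 2.11-fold lower, and of -0.74 for DGKzeta over EGFP, or 1.67-fold lower. EGFP over untreated was -0.33. The spread of a single probe set within these arrays, from the 2 brightest probe sets of 2251 genes, had an SD of 0.50, 0.40 and 0.27 on the log2 scale in these 3 comparisons. With the deposited values the Igf1r ratio was thus larger than 1 SD in each of them. That SD covers different probes on 1 RNA extract and not the spread between cultures. It was pooled over all signal levels from the floor up, and no separate SD was taken for signals near the floor. In cultures, fewer cells of a kind and less RNA per cell cannot be told apart. Other scalings of the arrays put the ratio to untreated cells between -0.98 and -0.81, short of 2-fold, and that to EGFP cells between -0.64 and -0.38, with the same directions. The value of -0.38, from scaling to 1 median over every named probe set, lay within 1 SD. The other Igf1r probe set (1452108_at) was under the floor on all arrays, at 22.1, 37.2 and 29.4.

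Igf2r, the receptor that takes IGF2 to the lysosome, has a pair of probe sets that disagreed between untreated and EGFP cells. The first (1424111_at) read 139.7 in untreated, 269 in EGFP and 146 in DGKzeta cells, high in EGFP cells alone. The other (1424112_at) had 329, 179 and 78.9, high in untreated cells and under the floor in DGKzeta cells. For EGFP over untreated the log2 ratios were 0.95 and -0.88, a gap of 1.83. Among 2475 other genes with a second probe set measured on both arrays, 10 had a gap as large, and the median gap was 0.22. No direction for Igf2r between EGFP and untreated cells is therefore given.

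Both Igf2r probe sets were lower in DGKzeta than in EGFP cells. The first had a log2 ratio of -0.88, or 1.84-fold lower, and the other was at least 1.67-fold lower, a bound because it was under the floor in DGKzeta cells. Against untreated cells they differed again: the first was at 0.06, and the other at least 3.07-fold lower. Igf1r and Igf2r, unrelated proteins that both bind IGF2, thus shared a lower signal in DGKzeta than in EGFP cells by every measured probe set. Under the 3 other scalings the first Igf2r probe set lay between -0.78 and -0.52 in that comparison.

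The ligand genes gave no measured signal on any array. Igf1, whose product also acts as the main circulating IGF, has 3 probe sets, the brightest at 11.2, 20.8 and 20.9 in untreated, EGFP and DGKzeta cells. The others were at 10.4, 7.50 and 2.52 and at 9.19, 1.55 and 9.51. Igf2, the autocrine ligand of differentiating myoblasts, had its brighter probe set at 52.9, 13.9 and 8.96 and the other at 3.06, 2.21 and 2.42. Values under the floor have no order here, so these are given as values and not as differences.

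Among the binding proteins Igfbp2 stood above the floor on every array. Its signal was 1824 in untreated, 2131 in EGFP and 1294 in DGKzeta cells, lowest in DGKzeta cells. DGKzeta over EGFP was -0.72 on the log2 scale, or 1.65-fold lower, against an SD of 0.40 for a single probe set. It was -0.77 to -0.36 under other scalings, the last of these within that SD. DGKzeta over untreated was -0.49, within the SD of 0.50 for that comparison, and EGFP over untreated 0.22, within 0.27. The single Igfbp2 probe set leaves no second reading of the gene.

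Igfbp4, known as an inhibitor of IGF action, and Igfbp5, which also binds extracellular matrix, were under the floor throughout. Igfbp4 has 6 probe sets with signals between 3.18 and 77.5, the brightest at 67.3, 59.3 and 77.5 in untreated, EGFP and DGKzeta cells. Igfbp5 had 62.2, 53.2 and 42.7 by its brighter probe set and 36.6, 59.2 and 54.1 by the other. These binding proteins were therefore not measured in any of the cultures.

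The receptor substrates differed in being measured at all. Irs1, the docking protein that couples the receptor to phosphatidylinositol 3-kinase, gave 3559 in untreated, 2962 in EGFP and 3197 in DGKzeta cells. Its log2 ratios were -0.26 for EGFP over untreated, 0.11 for DGKzeta over EGFP and -0.15 for DGKzeta over untreated, each within 1 SD of a single probe set. When the arrays were scaled to 1 median over every named probe set, the ratios were -0.37, 0.47 and 0.11, the first and second of them outside 1 SD and the last of the opposite sign. The EGFP ratio of -0.28 with 1 median over measured probe sets also lay just outside. Irs2, the related docking protein, has 1 probe set, listed at 43.6, 4.04 and 2.42, all under the floor.

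**Figure D2:**
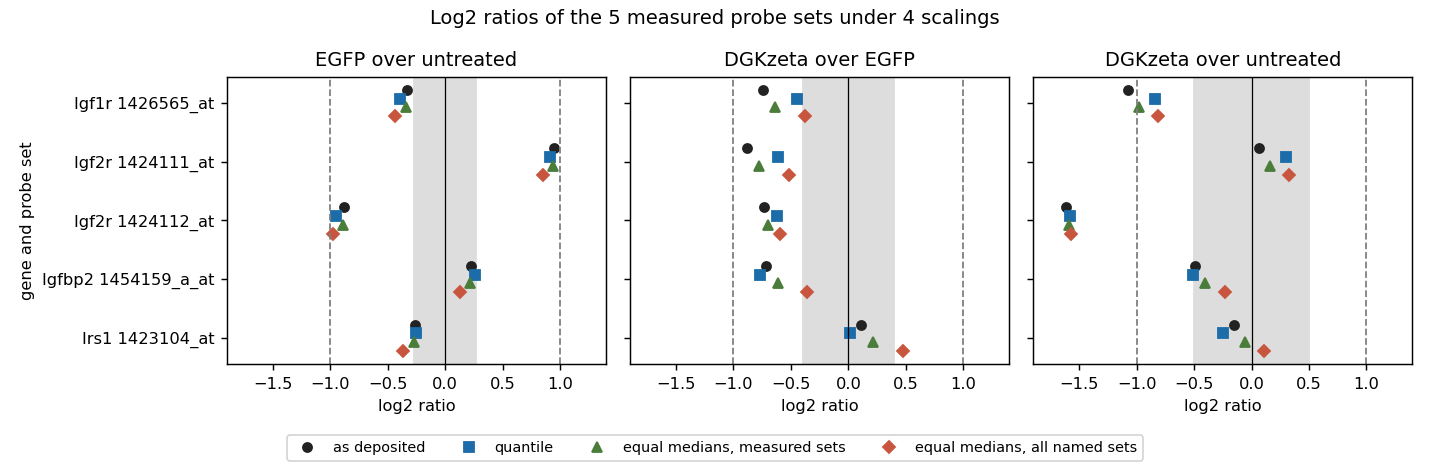
Log2 ratio (x axis) of the 5 measured probe sets (rows) in the 3 comparisons, with 1 symbol for each of 4 scalings; dashed lines mark 2-fold, the grey band 1 SD of a single probe set, and the DGKzeta ratios of Igf2r 1424112_at are bounds. In DGKzeta over EGFP both receptors and Igfbp2 lie left of 0 under every scaling and Irs1 right of it.

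Counted together, 0 of the 5 measured member probe sets were 2-fold higher or lower in EGFP than in untreated cells, where 0.447% of 10954 tested probe sets were higher and 0.785% lower. In DGKzeta over EGFP the count was again 0 of 5, with a background of 0.497% higher and 4.28% lower. At least 1.5-fold lower were 4 of 5, those of Igf1r, Igf2r and Igfbp2, where 14.0% of 10866 probe sets were. Under that rule, tried with other scalings after the data were seen, 4 of 5 were lower with 1 median over measured probe sets, 3 with quantile normalization (not Igf1r) and 1 with 1 median over every named probe set. Shares of all probe sets were counted with the deposited values alone, so counts under other scalings have no background and 14.0% does not apply to them. The members were chosen with such values known, and a pair of these sets reads 1 gene. Against untreated cells 2 of 5 were 2-fold lower, 1 of Igf1r and 1 of Igf2r, and 0 higher, where 5.21% of 10833 probe sets were lower and 1.84% higher. With each other scaling 1 of 5 remained past 2-fold, the Igf2r probe set. Both comparisons share the DGKzeta array, so they are not independent of each other.

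The genes nearest to Igf1r over both log2 ratios (EGFP over untreated and DGKzeta over EGFP) were Myo19, an unconventional myosin of mitochondria, Lysmd3, a LysM domain membrane protein, and Naa40, an N-terminal acetyltransferase. Their distances from Igf1r were 0.03, 0.04 and 0.04 on the log2 scale, among 6433 other genes measured on all 3 arrays. Myo19 had signals of 482, 389.9 and 234 in untreated, EGFP and DGKzeta cells. As many as 60 genes lay within 0.2 of Igf1r, so such a pattern over 3 arrays is shared by many genes.

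Further genes of the pathway were taken from 9 lists of 97 genes, 79 of them with a probe set in the table, each gene read by its brightest probe set. Over all lists 0 of 51 measured genes were 2-fold apart between EGFP and untreated cells (background 0.361% higher and 0.303% lower of 6932 genes). For DGKzeta over EGFP the count was 0 of 49, with a background of 0.347% higher and 2.84% lower. For DGKzeta over untreated 0 of 51 were higher and 1 lower, with a background of 1.34% and 2.80%. Scaling the arrays to 1 median over every named probe set (the all-set median scaling) lifts the median ratio of genes measured on all 3 arrays by 0.36 against EGFP and 0.26 against untreated cells (0.10 and 0.09 with 1 median over measured probe sets). With the all-set median scaling 3 list genes were higher and 0 lower in each of these comparisons. The share of all genes under that scaling was not counted, so these counts are not read as a result about the pathway. The median log2 ratio of the lists together was -0.02 for DGKzeta over EGFP and 0.08 for DGKzeta over untreated, where all genes had -0.02 and -0.02. The first of these lay between 0.08 and 0.34 under the other scalings. The pathway genes were thus spread on both sides of 0, with 24 above and 25 below it against EGFP.

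**Figure D3:**
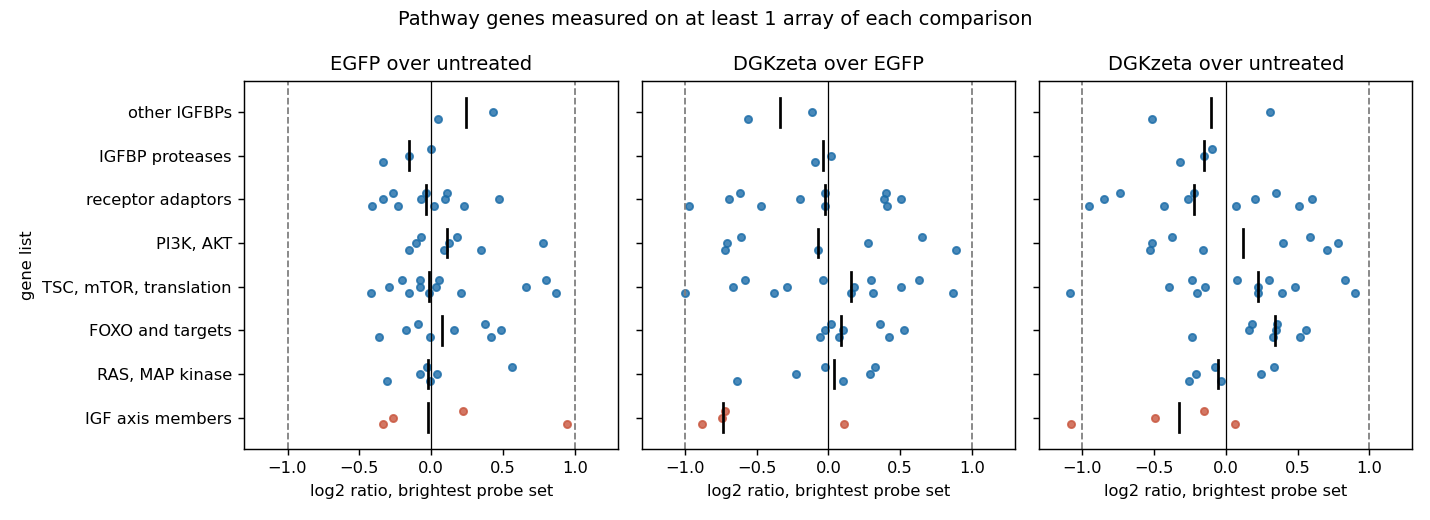
Log2 ratio by the brightest probe set (x axis) of genes measured on at least 1 array of a comparison, by list (rows), with the 4 measured IGF axis genes in red, list medians as black bars and dashed lines at 2-fold. Gsk3b lies past 2-fold lower in DGKzeta over untreated, and the measured Igf1r, Igf2r and Igfbp2 lie between -0.88 and -0.72 in DGKzeta over EGFP.

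Among the other carriers and binding proteins, 2 of 5 were measured. Igfbp6, which binds IGF2 by preference, had signals of 1273, 1319 and 893 in untreated, EGFP and DGKzeta cells, with -0.56 for DGKzeta over EGFP. Igfbp7, a low-affinity relative, had 1832, 2465 and 2272, with a log2 ratio of 0.43 for EGFP over untreated and -0.12 for DGKzeta over EGFP. Of the proteases that cut binding proteins and their inhibitors 3 of 5 were measured. Adam12, a metalloprotease of fusing myoblasts, was at 660, 523 and 530.2 and the serine protease Htra1 at 1934, 1930.1 and 1807. Their other probe sets gave log2 ratios of -0.44 and 0.48 for DGKzeta over EGFP, where the brightest gave 0.02 and -0.10. Pappa, the protease of IGFBP4, was measured in untreated cells alone (119, 97.0 and 24.9). The insulin receptor, its relative Insrr and Ins2 were under the floor on all arrays, as were Igf2bp1, Igf2bp3 and Dlk1.

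Receptor adaptors and phosphatases around the receptor had 11 of 17 members measured and medians of -0.02 for DGKzeta over EGFP and -0.22 for DGKzeta over untreated, the latter turning to 0.04 with the all-set median scaling and the former above 0 under each other scaling. Ptpn1, the phosphatase that removes phosphate from the insulin and IGF1 receptors, had signals of 1288, 1305 and 666 in untreated, EGFP and DGKzeta cells. Its ratio of -0.97 to EGFP was the lowest of the list, but its other probe set gave -0.36. Sh2b1, an adaptor of insulin and IGF receptors, had 505, 431 and 281, lowest in DGKzeta cells. Crkl, an SH2 and SH3 adaptor, had 964, 802 and 579 in the same order. Shc1, which links the receptor to GRB2, had 366, 507 and 313 by the brighter of its probe sets, with the peak in EGFP cells. The other Shc1 probe set read 123, 109 and 82.7, with the peak in untreated cells and DGKzeta cells under the floor. Their log2 ratios for EGFP over untreated were 0.47 and -0.17, of opposite sign.

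In the PI3K and AKT list 8 of 11 genes with a probe set were measured, with medians of -0.07 for DGKzeta over EGFP, above 0 under each other scaling, and 0.12 for DGKzeta over untreated. The former also turned to 0.11 with the floor at the 75th percentile and to 0.10 without the suffixes _x_at and _s_at. With the mean over the probe sets of a gene it was -0.33, and 1 gene was 2-fold lower. The median for DGKzeta over untreated turned to -0.17 with the floor at the 25th percentile or none, and to -0.16 with the mean over the probe sets of a gene. Pdpk1, the kinase that activates AKT, was at 580.3, 539 and 999 by its brightest probe set, 1.85-fold higher in DGKzeta than in EGFP cells. Its other probe set, at 306, 312 and 49.97, was at least 2.92-fold lower. Akt2 had signals of 422, 478 and 293, and Pik3r2, a regulatory subunit, 359, 456 and 277, both lowest in DGKzeta cells. Pik3ca, the catalytic subunit, was at 213, 365 and 347, a log2 ratio of 0.78 for EGFP over untreated, but its other probe set gave 0.02. Akt1, named after its values were seen, was lower than on both controls by each of its probe sets. They had 2328, 2483 and 1628, a log2 ratio of -0.61 to EGFP, and 665, 907 and 214, a ratio of -2.08.

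Downstream of AKT, 13 of 14 genes of the TSC, mTOR and translation list were measured, with medians of 0.15 for DGKzeta over EGFP and 0.22 for DGKzeta over untreated. The former was -0.04 when the suffixes _x_at and _s_at were left out. Gsk3b, a kinase that AKT inhibits, had signals of 444, 333 and 210.0 in untreated, EGFP and DGKzeta cells, 2.12-fold lower in DGKzeta than in untreated cells. With the arrays scaled in any of the 3 other ways it was not past 2-fold. Rps6kb2, an S6 kinase, was at 125, 218 and 109, close to the floor on 2 arrays and just short of 2-fold lower than in EGFP cells. Rps6, the ribosomal protein that S6 kinases phosphorylate, was at 615, 629 and 1149, 1.83-fold above EGFP cells. Deptor, an inhibitor of mTOR, had 304, 554 and 539, and Eif4ebp2, a repressor of cap-dependent translation, 768, 1216 and 813. Their other measured probe sets gave 0.11 for Deptor and 1.10 and -0.77 for Eif4ebp2 in EGFP over untreated, where the brightest gave 0.87 and 0.66.

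FOXO factors, which AKT keeps out of the nucleus, and their known muscle targets had 8 of 12 genes measured. Of these 8, 7 had a ratio above 0 in DGKzeta over untreated cells, where 48.3% of 6866 measured genes had. The count was 6 of 8 in DGKzeta over EGFP (47.4% of 6926 genes) and 4 of 8 in EGFP over untreated (53.7% of 6932). The list's median was 0.34 in DGKzeta over untreated, 0.43 to 0.60 under the other scalings, and 0.09 for DGKzeta over EGFP. Foxo1 had signals of 155, 218 and 229 in untreated, EGFP and DGKzeta cells, lowest in untreated cells. Ddit4, an mTOR inhibitor under stress, had 381, 509 and 546 in the same order. Bcl6, a transcriptional repressor, was at 200.4, 156 and 224 and the mitophagy receptor Bnip3 at 332, 312 and 417. No gene of the list was 2-fold apart by its brightest probe set. Fbxo32, the muscle atrophy ubiquitin ligase atrogin-1, was under the floor on all arrays.

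The RAS and MAP kinase list had 6 of 9 genes measured, with medians of 0.04 for DGKzeta over EGFP and -0.05 for DGKzeta over untreated, the latter above 0 under each other scaling. The former turned to -0.12 with the floor at the 25th percentile and to -0.03 with none. Map2k2, a MAP kinase kinase, was highest in EGFP cells, at 451, 666 and 428. Its other probe set had 258, 288 and 259, a log2 ratio of 0.16 for EGFP over untreated where the brightest gave 0.56. Nras was at 1010.0, 1040.0 and 1272 in untreated, EGFP and DGKzeta cells, and its 3 probe sets gave log2 ratios of 0.29 to 0.52 for DGKzeta over EGFP. Spry2, a feedback inhibitor of receptor tyrosine kinases, was at 512, 484 and 606, and Map2k1 at 1027, 829 and 888.

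Several genes of the pathway gave different answers by different probe sets, as Igf2r did. Of 16 list genes with more than 1 probe set measured on all 3 arrays, 9 had ratios on both sides of 0 in DGKzeta over EGFP and 8 in DGKzeta over untreated. The median range between probe sets of a gene was 0.47 and 0.48 on the log2 scale. Sesn1, a p53 and FOXO target named after its values were seen, ranged from -0.24 to 1.23 in DGKzeta over untreated cells.

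**Figure D4:**
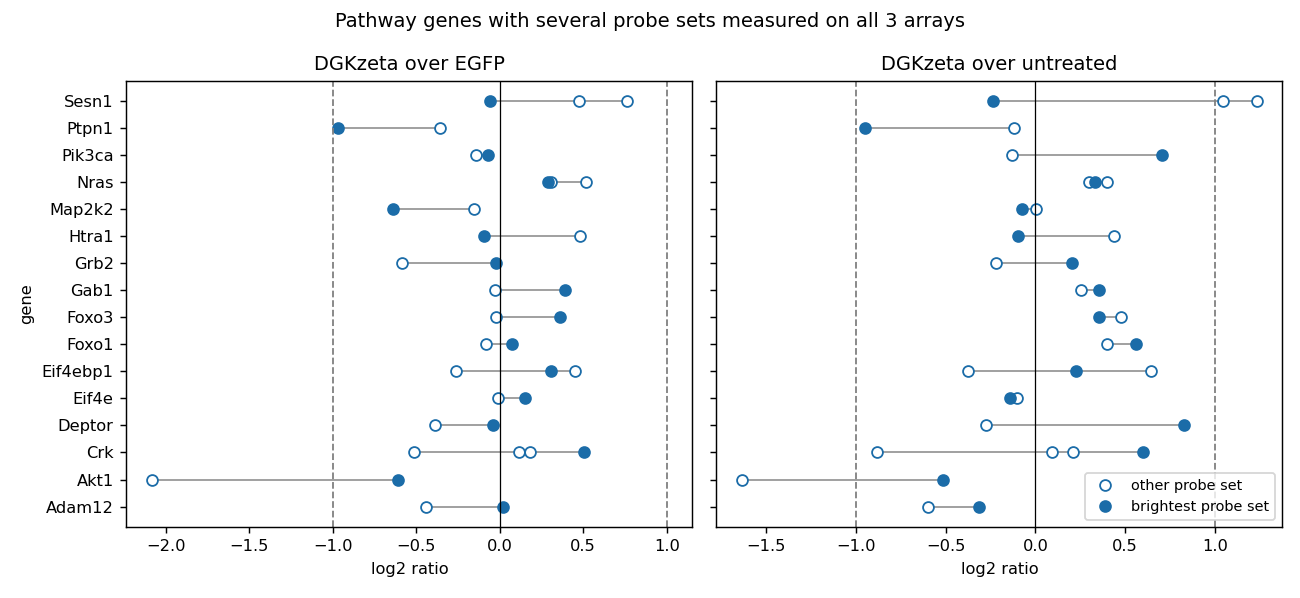
Log2 ratio (x axis) of every probe set measured on all 3 arrays, for 16 pathway genes (rows) with more than 1 such probe set; filled circles are the brightest probe set, open circles the others, dashed lines 2-fold. Akt1 lies left of 0 by both probe sets in both comparisons, and Crk, Eif4ebp1 and Sesn1 span 0 in both.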

How the data were processed

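RNA of 3 C2C12 cultures was labelled by the Affymetrix one-cycle method for 1 array per culture, as the labels' protocols state. The authors deposited intensity values (linear MAS5 signals), the tool being named in the submitters' processing notes. Its version and target, detection calls and a genome build: not given in the sources used here. The mean between the 2nd and 98th percentile was 499.9 on every array, so the authors' intensity values came already scaled, and no scaling was added. The number of arrays limits the precision.

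Of 22690 probe sets 64 are controls, 20380 have 1 gene symbol, 691 several and 1555 none, and sets without a single symbol were not used. Gene IDs of 20351 matched RefSeq's gene table (GRCm38.p6), where 0 symbols differed. Promoter sequences came from RefSeq for all 9 members. Values under the floor (50th percentile of pooled values) were set to it before log2, and where 1 side lay under it the ratio is a bound. A gene is represented by the probe set with the highest mean log2 value. Named genes are all 9 members, Dgkz, list genes 2-fold apart and up to 4 more per list with the largest ratios. To these come the 3 genes nearest to a member whose brightest probe set was 2-fold apart. Outside that rule, Akt1, Sesn1, Pappa, Crk, Eif4ebp1, some list genes under the floor, and marker and control genes are also named. The members and lists were chosen with earlier results of these data known. The counting was tested on simulated data whose planted changes lay in probe sets far above the floor. That test does not cover changes near 2-fold in signals close to the floor, such as those of Igf1r. Alternatives were 3 scalings (quantile normalization, 1 median over every named probe set or over sets measured on all 3 arrays, called all-set and measured-set), lower and higher floors (25th, 75th percentile), none, a pseudocount of 16, rules of 1.5-fold and 3-fold, leaving out suffixes _x_at and _s_at, and the brightest probe set or the mean per gene. Software was Python 3.11.15 with pandas 2.3.3, numpy 2.4.6 and, for figures, matplotlib 3.10.9.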

Additional observations from a re-analysis of the deposited data

How the results depend on the processing

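Sizes rest on 1 array per group, and signals near the floor limit what can be said of Igf1r and Igf2r. No paired analysis was possible because each group has 1 sample. Alternatives were fixed with earlier results of these data known. For a value without a test, a move by less than 1 SD of a single probe set was taken as no change.

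Member probe sets 2-fold higher or lower were counted again under each alternative. In DGKzeta over untreated (2 lower) the count of lower ones was 1 with quantile normalization, with the all-set median scaling, with the measured-set median scaling, with a pseudocount of 16, with a rule of 3-fold and with the brightest probe set of each gene, where Igf2r is read by its other probe set. It was 0 with the floor at the 75th percentile, which leaves 2 measured member probe sets, and 0 with the mean over the probe sets of a gene. With the floor at the 25th percentile it was 4 of 16 measured sets, and with no floor 5 of 20, with 1 higher. In DGKzeta over EGFP (0 and 0) there was 1 of 14 lower with the 25th percentile and 1 with a pseudocount of 16. There were 1 higher and 2 lower of 20 with no floor, and 4 lower at 1.5-fold (1 with the all-set median scaling, an alternative added after seeing the data). In EGFP over untreated (0 and 0) there were 2 of 16 lower with the 25th percentile. There were 1 higher and 3 lower of 20 with no floor, and 1 higher and 1 lower at 1.5-fold. Shares over all probe sets were counted with the main floor and the deposited values alone. Counts under other floors and scalings have none beside them.

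Over all pathway lists, DGKzeta over untreated (0 higher, 1 lower) gave 0 lower with quantile normalization, the measured-set median scaling, the 75th percentile and 3-fold. It gave 3 higher and 0 lower with the all-set median scaling, and 6 and 4 at 1.5-fold. It gave 2 and 5 of 73 measured genes with the 25th percentile, and 4 and 8 of 79 with no floor. It gave 3 lower with a pseudocount, 1 higher without suffixes _x_at and _s_at, and 2 lower with the mean per gene. DGKzeta over EGFP (0 and 0) gave 3 higher with the all-set median scaling, and 2 higher and 5 lower of 70 with the 25th percentile. It gave 7 and 6 of 79 with no floor, 4 and 9 at 1.5-fold, and 1 lower with the mean per gene. EGFP over untreated (0 and 0) gave 2 of 69 lower with the 25th percentile, 1 higher and 8 lower of 79 with no floor, and 4 higher at 1.5-fold. No share over all genes was counted under these alternatives.

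No called log2 ratio of a member probe set changed sign under a scaling, floor or pseudocount that gave a value. Read by its brightest probe set, Igf2r was at 0.06 in DGKzeta over untreated, where the called probe set gave -1.62. The DGKzeta to EGFP ratio of Igf2r 1424112_at moved by more than 1 SD, to -1.18 with the floor at the 25th percentile and with no floor.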
